A study of Mus musculus with 6 samples.

Results

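MHC class II high macrophages are macrophages rich in the transcripts of the antigen-presenting MHC class II molecules. They were selected here among droplet single-cell RNA profiles of the mouse genioglossus, a muscle of the tongue that helps to hold the airway open. A barcode was a member if it had at least 300 detected genes, at least 20 UMIs (unique molecular identifiers, counted transcripts) of H2-Aa, H2-Ab1, H2-Eb1 and Cd74 together, and at least 3 UMIs of C1qa, C1qb and C1qc together. It could hold at most 1 UMI of Folr2, Cd209f, Cd209d and Cd209g together and at most 1 of Spp1. Cd79a, Cd79b, Flt3, Pecam1 and Cdh5 had to be at 0. This rule gave 379 cells of 56309 barcodes. The values of these 17 genes chose the cells, so their levels are given below as a description, without a test.

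The study compared male mice of a control group with mice of an obstructive sleep apnea (OSA) model at week 4, with 3 libraries per group, all marked as batch 1. The labels name no strain, age or genotype and give no account of the model's induction or of whether each library came from a separate animal. P-values therefore measure the spread between these libraries, which may be technical. Cells came from all 3 OSA libraries and from control replicate 2, since the counts of the other controls, replicates 1 and 3, were not used here. The control thus rests on 1 library with 23 members, against 63, 49 and 244 members in OSA replicates 1, 2 and 3.

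MHC class II molecules are pairs of an alpha and a beta chain that display peptides from engulfed material to CD4+ T cells. Cd74, the invariant chain, guards the peptide groove during transport, H2-DM exchanges it for a peptide, and the transactivator Ciita switches the whole gene group on. C1qa, C1qb and C1qc encode the chains of C1q, which starts the classical complement pathway and is made mainly by tissue macrophages. In muscle, macrophages clear debris and support repair, and subsets with much or little MHC class II lie side by side.

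The promoters of the class II genes share short elements just upstream of the start, known as the X and Y boxes, through which the Ciita complex acts. The stretches of 2 genes of the rule are shown because these elements define the group that the selection is built on. They come from RefSeq, build GRCm38.p6, which is not the build of the count files, and run from base 150 to base 31 before the start. Capitals mark TGATTGG, the core of the Y box, and AACNGATG, a part of the X box, each searched on both strands.
H2-Aa, chr17:34287854-34287973, minus strand: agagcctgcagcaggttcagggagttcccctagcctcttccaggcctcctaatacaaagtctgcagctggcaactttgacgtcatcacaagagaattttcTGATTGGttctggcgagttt
H2-Eb1, chr17:34305717-34305836, plus strand: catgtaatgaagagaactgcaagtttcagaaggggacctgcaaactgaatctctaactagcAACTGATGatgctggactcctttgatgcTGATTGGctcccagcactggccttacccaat
Both stretches hold TGATTGG, which 7.82% of 32851 promoter windows of 300 bases hold. H2-Eb1 also holds AACTGATG, and AACNGATG lies in 2.32% of the windows and together with TGATTGG in 0.186%. H2-DMb1 and H2-DMb2, class II genes outside the rule whose levels are given below, hold both motifs as well. In the windows of H2-DMa neither was found. These matches are descriptions of sequence and not of factor binding. The table has no window for H2-Ab1, Cd74 or Ciita.

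The members carried the given markers and looked like macrophages by genes that the rule did not use. Because the rule asks for C1q and excludes Flt3, such genes are not independent of it, and their levels are a description. In control replicate 2 and OSA replicates 1, 2 and 3, in that order here and in all value lists that follow, Csf1r, the receptor for the macrophage growth factor, stood at 715, 834, 962 and 1156 CPM (UMIs per 1000000 UMIs summed over the members of a library). Lyz2, lysozyme, stood at 5583, 7394, 4984 and 9188 CPM. Both were abundant in every library. Several genes that define dendritic cells, the other class II rich cells of tissue, were near 0: Clec9a was at 0 in all 4 libraries, and Xcr1, Cd209a and Ccr7 were at or below 3.27 CPM. In cells with at least 1 Flt3 UMI, the same class II limit and no C1q, taken as dendritic cells, Ccr7 stood at 398, 771 and 605 CPM in the OSA replicates. Csf1r there was 23.4, 72.0 and 329 CPM. Such dendritic cells numbered 4, 11 and 21 in the OSA libraries and 0 in the control, too few for a test. The whole list of 18 dendritic genes, some of which macrophages also express, summed to 366, 348, 350 and 357 CPM in the members. Of its genes 8, 8, 13 and 16 had a UMI, and Batf3 was highest in the control and OSA replicate 2 and Irf8 in the other libraries. Zbtb46, another dendritic factor, was at 0 in the control members and at 7.11, 6.55 and 2.82 CPM in the OSA members.

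Transcripts that mark other cell types were also found in the members, at low levels for T, NK, B and plasma cell genes. The 6 endothelial genes listed summed to 632, 803, 828 and 491 CPM, although Pecam1 and Cdh5 had to be at 0. The 4 erythroid genes summed to 236, 291, 1339 and 203 CPM, and the 5 mural genes to 213, 592, 147 and 274 CPM. The 13 T and NK genes listed summed to 11.8, 23.7, 6.55 and 21.2 CPM, with Cd3e at 0 in all 4 libraries. The 6 B and plasma cell genes summed to 82.7 CPM in the control and to 32.7 and 42.3 CPM in OSA replicates 2 and 3, with Pax5 at 0 in all 4 and Ighm, an antibody heavy chain, holding the 14 UMIs of the control. The 13 neutrophil genes listed summed to 41.4 CPM in the control, to 192 and 228 CPM in OSA replicates 1 and 3, and to 1810 CPM in OSA replicate 2. There all 13 had a UMI, and S100a9 was in 79.6% of the members and in 80.4% of endothelial barcodes (at least 5 UMIs of Pecam1 and Cdh5), at median depths of 5054 and 5372 UMIs. The 7 fibroblast genes summed to 620 CPM in the control and to 995, 1643 and 1588 CPM in the OSA members, with Pdgfra at 0 in the control and OSA replicate 1. At least 3 C1q UMIs were found in 0.345% of endothelial barcodes of the control and in 0.869%, 0.769% and 6.53% of those of the OSA replicates. OSA replicate 3 thus had the largest share of endothelial barcodes with C1q as well as the most members. Whether such barcodes held free RNA or a macrophage as well was not tested. The part of free RNA in the counts of members was not tested either. With at least 10 C1q UMIs required, 19, 55, 44 and 211 members were left.

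Some cells lay close to the class II limit on both sides in every library, and few members lay close to the C1q limit. Of cells that met the rest of the rule, 1, 5, 5 and 32 had 20 to 29 class II UMIs, just inside, and 2, 12, 5 and 50 had 10 to 19, just outside. Just outside the C1q limit, with 0 to 2 UMIs, lay 20, 13, 18 and 95 barcodes, and 2, 3, 0 and 19 lay inside with 3 to 5. Of the members, 0, 0, 5 and 9 were called doublets by Scrublet and were kept. No members of different libraries shared a cell barcode.

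Members made up a larger part of all barcodes in each OSA library than in the control. The share was 0.168% in control replicate 2 (95% Clopper-Pearson interval 0.106% to 0.252%), 0.401% in OSA replicate 1 (0.308% to 0.513%), 0.389% in OSA replicate 2 (0.288% to 0.514%) and 1.71% in OSA replicate 3 (1.499% to 1.93%). The control lay below all 3 OSA libraries, and the intervals, which cover counting error only, did not overlap with it. The OSA mean was 0.832% ± 0.756 (SD, n = 3), and an exact two-sided permutation test over libraries gave p = 0.5, where 1 against 3 cannot go below 0.25. OSA replicate 3 alone set most of that mean: without it the difference from the control fell from 0.664 to 0.227 percentage points.

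The share of members among macrophages with C1q was compared next. Of barcodes with at least 3 C1q UMIs and none of the excluded B-cell, Flt3 and endothelial transcripts, they were 21.3% of 108 in the control and 28.3% of 223, 18.9% of 259 and 20.6% of 1183 in the OSA libraries. The control lay inside the OSA range (OSA mean 22.6% ± 4.97, SD, n = 3; exact two-sided permutation test, p = 1, smallest possible 0.25, difference 1.30 percentage points). The direction of this small difference turned without OSA replicate 1, to -1.52 points, without cells called as doublets, to -0.154, and with a class II limit of 40 UMIs, to -0.201. It grew to 3.30 points with a class II limit of 10 UMIs, to 5.70 among cells of 2000 to 20000 UMIs and to 7.06 with at least 10 C1q UMIs. In the last 2 settings the control, at 19.4% in both, lay below all OSA libraries (31.1%, 20.6% and 23.5%, and 32.0%, 21.1% and 26.3%), so these data do not settle the direction. The median depth of a member was 6994 UMIs in the control and 6654, 5054 and 5381 UMIs in the OSA libraries (exact two-sided permutation test, p = 0.25). The control members were thus the deepest, which bears on every share of cells with a UMI.

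**Figure D1:**
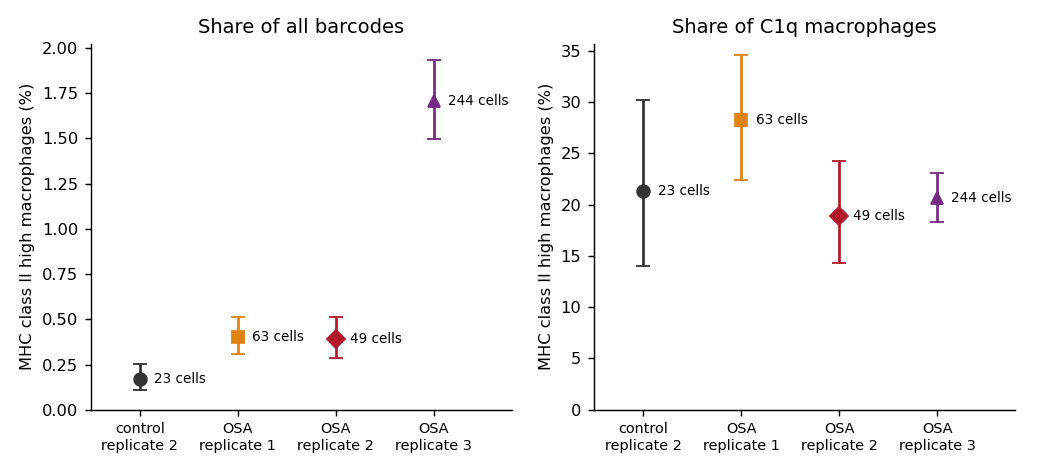
Share of MHC class II high macrophages among all barcodes (left) and among C1q macrophages (right), in percent, for each library. Points are libraries with their number of members, and bars are exact 95% binomial intervals. On the left the control, at 0.168%, lies below all OSA libraries, and on the right, at 21.3%, it lies within their range.

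Within the members the class II load was spread widely, and the control cells held more of it. The 4 class II genes took a median of 4.19% of a member's UMIs in the control, against 2.82%, 2.18% and 2.06% in the OSA libraries. Single cells ran from 0.829% to 7.01% in the control, from 0.182% to 9.72% in OSA replicate 1, from 0.512% to 8.97% in OSA replicate 2 and from 0.160% to 11.6% in OSA replicate 3. The median was highest in the control, while the ranges of single cells overlapped fully. The beta chain gene H2-Ab1 stood at 7385, 4572, 4366 and 3850 CPM. Cd74 was the most abundant of the set at 21936, 13324, 15225 and 12623 CPM. The alpha chain gene H2-Aa (6333, 4504, 3188 and 3099 CPM) and the beta chain gene H2-Eb1 (6652, 4471, 3737 and 3626 CPM) were also highest in the control. C1qa did not follow: it stood at 2853, 3708, 2782 and 2855 CPM, with the control inside the OSA range. C1qb (control 3805 CPM, OSA 3093 to 3983 CPM) and C1qc (control 2180 CPM, OSA 1670 to 2488 CPM) did likewise. Of the genes the rule capped, Spp1 stood at 0 CPM in the control and at 6.55 to 33.1 CPM in OSA. Folr2 stood at 35.4 CPM and at 16.6 to 32.7 CPM, Cd209d at 11.8 CPM and at 0 to 6.55 CPM. Cd209f stood at 5.91 CPM and at 0 to 0.705 CPM, and Cd209g was at 0 throughout. These genes belong to the rule, so no test was made.

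**Figure D2:**
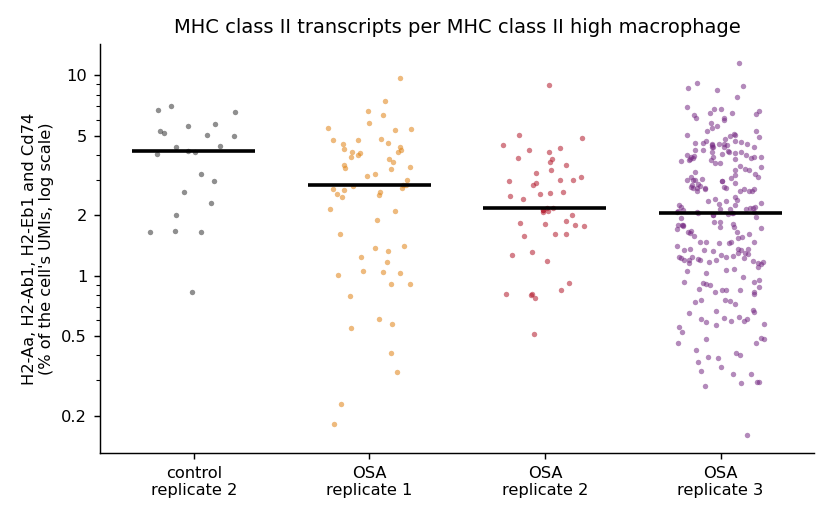
Share of each member's UMIs that came from H2-Aa, H2-Ab1, H2-Eb1 and Cd74, in percent on a log scale. Points are cells, spread sideways at random within a library, and bars are medians. The medians are 4.19% in the control, against 2.82%, 2.18% and 2.06% in the OSA libraries.

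The 17 other genes of class II presentation, which the rule did not use, had summed levels of 4703 CPM in the control and 4641, 3312 and 4273 CPM in the OSA libraries. H2-DMa, a chain of the peptide exchanger, stood at 939 CPM in the control and at 384, 399 and 319 CPM in the OSA libraries. All OSA libraries lay below the control, and the log2 difference of -1.32 ± 0.31 (SE) had an edgeR adjusted p of 0.0627. In the control 32.1% of the H2-DMa UMIs came from 1 cell. Its partner H2-DMb1 stood at 697, 336, 504 and 271 CPM (adjusted p = 0.352), and 50.8% of its control UMIs came from 1 cell. Cd86, a costimulatory ligand for T cells, stood at 975 CPM in the control and at 379, 488 and 271 CPM in the OSA libraries, again below it throughout (log2 difference -1.34 ± 0.33, SE, adjusted p = 0.0926). Of the 17 genes 11 were abundant enough for the test, 7 were lower and 4 higher in OSA, and none passed. Their median log2 difference was -0.87, beside 0.07 over all genes tested. Ctss, the protease that trims the invariant chain, was among the higher ones at 1306, 2582, 1270 and 2544 CPM, with OSA replicate 2 close to the control.

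The number of genes called between OSA and control in the members depended on the setting. Of 6439 genes 5 rose and 11 fell at an adjusted p below 0.05 in edgeR's quasi-likelihood test (0.0777% and 0.171% of the genes tested), on summed counts per library. There were 702 genes with an unadjusted p below 0.05. DESeq2 called 15, of which 11 were shared. The count of 16 became 67, 242 and 66 without OSA replicate 1, 2 or 3, 62 on sums thinned to equal totals, and 57 without the filter on low counts. All 16 were among the calls in each of these settings. With at least 10 counts in every sum 6 genes were called, and without each gene's highest cell 9. With 1 control library, its variation was taken to be that of the OSA libraries. Genes were named from these calls only if every OSA library lay on the same side of the control. That separation was thus set by the choice and is no further result.

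The genes that rose included 2 that were found across many cells. Cd63, a tetraspanin of lysosomes and endosomes, stood at 112 CPM in the control and at 801, 442 and 667 CPM in the OSA libraries. The OSA mean was 637 ± 181 CPM (SD, n = 3), 5.67-fold the control level (log2 change 2.55 ± 0.46, SE, edgeR adjusted p = 0.0071). It was detected in 52.2% of the control members and in 82.5%, 73.5% and 85.2% of the OSA members, and after thinning to 2000 UMIs in 31.6%, 73.6%, 50% and 63.9%. Endothelial barcodes had Cd63 at 187, 202, 203 and 274 CPM. Tnfaip2, a gene induced by tumour necrosis factor, stood at 112, 516, 409 and 610 CPM (log2 change 2.24 ± 0.45, SE, adjusted p = 0.0192). The thinned share of cells was 26.3% in the control against 49.1%, 38.1% and 48.6%. Its call was lost by a small margin, at an adjusted p of 0.0517, with at least 10 C1q UMIs.

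The other rises were less evenly spread or lost their call in some settings. Saa3, an acute-phase apolipoprotein, was at 0 UMIs in the control and at 462, 331 and 258 CPM in the OSA libraries, at least 19.8-fold higher than a floor of 3 counts in the control. However, 1 cell held 188 of the 195 Saa3 UMIs of OSA replicate 1, another held 98 of the 101 of OSA replicate 2, and the highest cell of OSA replicate 3 held 114 of 366. Without the highest cell of each library the adjusted p was 0.798, and with a class II limit of 40 UMIs it was 0.737. Saa3 in endothelial barcodes stood at 0.864 CPM in the control and at 37.1, 2.89 and 39.4 CPM in the OSA libraries. F10, coagulation factor X, had 1 UMI in the control and stood at 123, 134 and 235 CPM in the OSA libraries, 27.8 times the control level with a counting interval of 4.99 to 1098. Without the highest cells the OSA libraries stood at 49.1 to 218 CPM and the control at 0, and the adjusted p was 0.339. The call was also lost with DESeq2 (0.371) and with a class II limit of 40 UMIs (0.189), where the log2 changes of 4.84 and 4.74 were close to the 4.84 of the main test. Endothelial barcodes had F10 at 43.2, 43.5, 43.3 and 38.7 CPM. The fifth gene that rose is a predicted gene and is counted only.

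Among the genes that fell were chaperones and a stress gene expressed in most control cells. Hspa1a, the inducible chaperone HSP70, stood at 2180 CPM in the control and at 490, 795 and 660 CPM in the OSA libraries. The control level was 3.36-fold the OSA mean of 649 ± 153 CPM (SD, n = 3; log2 change -1.71 ± 0.29, SE, adjusted p = 0.0036). At 2000 UMIs Hspa1a was in 84.2% of the control members and in 34%, 45.2% and 32.9% of the OSA members. Endothelial barcodes of the same libraries had Hspa1a at 781, 730, 769 and 892 CPM, with no such gap. The OSA effect on 12 heat shock genes was also compared with that in the Folr2 and Cd209 macrophages described below. It was lower in the members for all 12, and 0 were called as different. Hsp90aa1, an inducible HSP90, stood at 1205, 400, 471 and 389 CPM (log2 change -1.48 ± 0.29, SE, adjusted p = 0.0181). Ppp1r15a, which helps to restart protein synthesis after stress, stood at 1140, 422, 448 and 271 CPM (log2 change -1.56 ± 0.32, SE, adjusted p = 0.0213), and its call was lost without the highest cells (adjusted p = 0.0889, log2 change -1.55), with DESeq2 (0.0692) and with at least 10 counts in every sum (0.0769). In the last setting Hsp90aa1 also lost its call (0.0769). The groups did not overlap for either gene, which the choice of named genes required. Of the 12 heat shock genes tested 10 were lower and 2 higher, and 2 passed, with a median log2 difference of -0.85. Over all genes tested the median was 0.07, and 0.171% were called lower.

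Gbp7, an interferon-induced GTPase, was at 189 CPM in the control and at 26.1, 16.4 and 11.3 CPM in the OSA libraries. It was detected in 12 of 23 control members and in 8 of 63, 3 of 49 and 15 of 244 OSA members, so the fall (log2 change -3.46 ± 0.52, SE, adjusted p = 0.000891) was spread over cells. It stood at 81.4, 78.2, 78.1 and 64.0 CPM in endothelial barcodes, above the level of the OSA members. Efcab11, an EF-hand protein, was at 177, 33.2, 49.1 and 21.2 CPM and also came from 12 of 23 control members (log2 change -2.45 ± 0.48, SE, adjusted p = 0.0181). DESeq2 did not call it (0.268).

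For Slc9a4, Cenps, Smarcc2 and Stmn1 a single control cell held a large part of the UMIs. Of 63 control UMIs of Slc9a4, a sodium-proton exchanger, 60 lay in 1 cell. Of 34 UMIs of Cenps, a centromere protein, 32 lay in 1 cell. For Smarcc2, a chromatin remodeller, it was 29 of 41, and for Stmn1, which destabilises microtubules, 13 of 27. Without those cells the control level of Slc9a4 dropped from 372 to 17.7 CPM, and Smarcc2 had a log2 change of -0.92 in place of -2.22 (adjusted p = 0.542). Stmn1 lost its call (adjusted p = 0.161) but not its size, with a log2 change of -2.77 in place of -3.14. Slc9a4 and Cenps then had too few counts to be tested. Nsd3, a histone methyltransferase, was just past the threshold (adjusted p = 0.0498) at 508, 204, 141 and 133 CPM, and 7 of 14 alternatives did not call it. Without the highest cells Nsd3 stood at 349 CPM in the control and at 124 to 187 CPM in the OSA libraries, and its log2 change was -1.51, in place of -1.64 (adjusted p = 0.152). The last of the 11, the cyclin gene Ccnf, was below the level set for named genes.

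**Figure D3:**
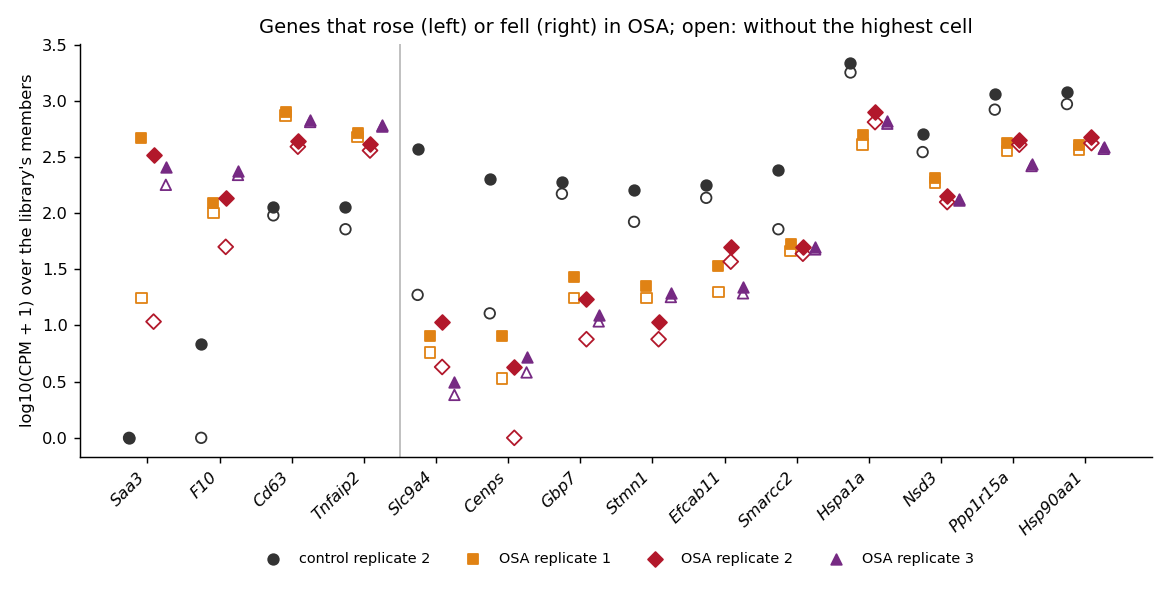
Levels in MHC class II high macrophages of the 4 named genes that rose (left of the line) and the 10 that fell in OSA, as log10 of CPM plus 1. Filled points are libraries over all members, and open points are the same libraries without the cell that held most UMIs of that gene. Cd63, Tnfaip2, Gbp7 and Hspa1a keep their gap, and Saa3, Slc9a4 and Cenps lose much of it.

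Genes of lipid-associated macrophages, the scavenging and lysosome-rich state found around damaged tissue, were higher in the OSA members as a group, and Cd63 was the only one called. All 15 of the 15 tested (of 16 listed) were higher, with a median log2 difference of 1.32. Over all genes tested the median was 0.07, and 0.0777% were called higher. The rule caps Spp1 at 1 UMI. Macrophages above that limit, with at least 2 Spp1 UMIs, numbered 27, 12 and 222 in the OSA libraries and 1 in the control. The part of cells near that limit in this difference was not tested. Trem2, a lipid receptor, stood at 41.4, 263, 91.6 and 322 CPM. Ctsd, a lysosomal protease, stood at 224, 1137, 648 and 1608 CPM (adjusted p = 0.196). Lgals3, galectin-3, stood at 656, 1803, 1198 and 2351 CPM. In each of these the control was lowest and OSA replicate 2 lay nearest to it, and none of the 3 passed. Gpnmb, a glycoprotein of lysosome-rich macrophages, had 1 UMI in the control and stood at 147, 22.9 and 424 CPM in the OSA libraries. OSA replicate 3, with the highest Gpnmb, also had the most Gpnmb in endothelial barcodes, at 102 CPM against 2.38 to 26.3 CPM in the other libraries.

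Genes of resident and alternatively activated macrophages pointed in both directions, and none of the 17 tested passed (11 lower, 6 higher, median log2 difference -0.36). Retnla, a secreted protein of alternative activation, ranged from 1623 CPM in OSA replicate 1 to 11881 CPM in the control, and 67.4% of the Retnla UMIs of OSA replicate 1 came from 1 cell. Mgl2, a C-type lectin, stood at 479, 235, 242 and 126 CPM (adjusted p = 0.217). Mrc1, the mannose receptor, stood at 402, 434, 465 and 116 CPM. For Mrc1 OSA replicate 3 lay below the other 3 libraries.

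Several other groups leaned one way with few or no calls. Over all genes tested the median log2 difference was 0.07, and 0.248% were called. Of 24 oxidative phosphorylation genes tested 23 were higher in OSA (median log2 difference 0.61), among them Cox4i1, a subunit of cytochrome oxidase, at 603, 1102, 838 and 1055 CPM, and none passed. Of 19 immediate early genes, which respond within minutes to a stimulus and to tissue dissociation, 17 were lower and none passed. Jun among them stood at 2582, 1578, 1316 and 770 CPM. Of 14 interferon response genes 12 were lower and Gbp7 alone passed. Of 20 hypoxia and glycolysis genes 17 were higher and none passed, with Pkm, pyruvate kinase, at 272, 505, 553 and 766 CPM. Among 17 antioxidant genes 15 were higher, again with none past the threshold, and the iron store gene Fth1 stood at 4567, 14817, 9655 and 19760 CPM.

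The members varied among themselves along the same lines. The genes of this description were picked after the values were seen: Mrc1, F13a1 and Mgl2 for the resident side, and Trem2, Gpnmb and Fabp5 for the lipid-associated side. At 2000 UMIs per cell, any of Mrc1, F13a1 and Mgl2 was found in 78.9% of 19 control members and in 69.8% of 53, 83.3% of 42 and 39.4% of 216 OSA members. Any of Trem2, Gpnmb and Fabp5 was found in 31.6%, 62.3%, 26.2% and 70.4%. OSA replicate 2 resembled the control in both shares. OSA replicate 3 was lowest for the first and highest for the second. Cells with both numbered 4 of 19 in the control and 20 of 53, 9 of 42 and 47 of 216 in the OSA libraries. Fabp5 is also made by endothelium, where it stood at 465 to 747 CPM. Cells with a Gpnmb UMI carried less class II, with a median of 1.20% of UMIs against 3.47% in cells without one in OSA replicate 1, 1.31% against 2.45% in OSA replicate 2, and 1.36% against 2.73% in OSA replicate 3. In OSA replicate 2 this rests on 3 cells, and in the control 1 cell with Gpnmb had 4.03% against 4.29%. Cells with Gpnmb were deeper, with medians of 7093, 12407 and 6124 UMIs against 6214, 5001 and 4558 UMIs in the OSA libraries. A deeper cell meets the limit of 20 class II UMIs at a lower percentage, and the part of depth in this difference was not tested. Cells with an Mgl2 UMI carried more, with 3.91% against 1.65% in OSA replicate 3, 4.19% against 2.70% in OSA replicate 1, and 2.85% against 1.78% in OSA replicate 2. In the control the values for Mgl2 were 4.26% and 4.19%. Cells with Mgl2 were shallower in OSA replicate 1 (median 5570 against 6729 UMIs) and OSA replicate 3 (5104 against 5548). They were deeper in OSA replicate 2 (6982 against 3519) and the control, and the part of depth was not tested. Mrc1 and F13a1 leaned the same way in the OSA libraries, but by less. F13a1 was reversed in the control (4.03% against 5.91%). Fabp5 cells carried less class II in the OSA libraries but more in the control (4.39% against 3.70%).

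The members were set beside the neighbouring macrophages of the same libraries. Macrophages with at least 2 UMIs of Folr2 and the Cd209 genes, a resident type, numbered 65, 39, 69 and 129. Macrophages with at least 2 Spp1 UMIs numbered 27, 12 and 222 in the OSA libraries, and 1 in the control. The cells on both sides were chosen by their transcripts, and genes regulated with those of the rule are not independent of it, so the calls between classes are given once here, as a description, and nothing is read from them. They called 524 of 5509 genes between the members and the Folr2 and Cd209 class (9.51%) and 386 of 5295 between the members and the Spp1 class (7.29%). Of these, 254 were higher and 270 lower in the members than in the Folr2 and Cd209 class (4.61% and 4.9%), and 215 were higher and 171 lower than in the Spp1 class (4.06% and 3.23%).

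Of the presentation genes outside the rule 6 of 9 tested were higher in the members than in the Folr2 and Cd209 class, and 6 of 11 were higher than in Spp1 macrophages. Ciita, the class II transactivator, stood at 100, 59.2, 75.3 and 36.0 CPM in the members and at 12.1, 20.9, 11.5 and 13.5 CPM in the Folr2 and Cd209 class. In Spp1 macrophages it was 2.74, 0 and 7.22 CPM in the OSA libraries. H2-DMa was 939, 384, 399 and 319 CPM in the members against 171, 134, 143 and 215 CPM in the Folr2 and Cd209 class, and 63.1, 99.6 and 79.1 CPM in Spp1 macrophages. For both genes the members exceeded the other classes in every library. Cd86 separated the members from Spp1 macrophages (102, 19.9 and 41.5 CPM) but not from the Folr2 and Cd209 class (853, 836, 565 and 469 CPM), which was higher in each OSA library. The dendritic cells had H2-DMb2, a further chain gene chosen after its values were seen, at 117, 154 and 43.2 CPM in the OSA libraries, and the members had it at 2.37, 16.4 and 9.87 CPM.

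The rule itself sets members low for Folr2 and the Cd209 genes, and the 18 resident genes tested were all lower than in the Folr2 and Cd209 class. Lyve1, the hyaluronan receptor, stood at 154, 130, 268 and 83.2 CPM in the members against 1556, 1617, 1346 and 948 CPM. Fcna, ficolin A, stood at 23.6, 30.8, 22.9 and 6.35 CPM against 696, 485, 311 and 469 CPM. Pf4, a chemokine also known from platelets, was 1382, 1815, 1708 and 1481 CPM against 6005, 5395, 5554 and 5550 CPM. None of these ranges overlapped. Against Spp1 macrophages 13 of 14 resident genes were higher, and Mgl2 was 235, 242 and 126 CPM in the OSA members against 0, 0 and 1.44 CPM.

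Other genes were higher in the members than in the Folr2 and Cd209 class. Fn1, fibronectin, stood at 549, 571, 769 and 642 CPM against 16.9, 91.9, 284 and 114 CPM in the Folr2 and Cd209 class. Cd52, a small surface glycoprotein of leukocytes, stood at 709, 974, 975 and 1304 CPM against 77.3, 125, 148 and 306 CPM. Il1b, the inflammatory cytokine, stood at 136, 407, 170 and 240 CPM against 2.42, 8.36, 11.5 and 58.6 CPM. Each was higher in the members in every library, which the choice of named genes required. The control value of Il1b came from 2 of 23 members and was 29.5 CPM without the highest cell. In Spp1 macrophages Fn1 stood at 631, 1374 and 981 CPM, above the members of each OSA library, and Il1b at 140, 438 and 155 CPM, without a common direction. Of 18 hypoxia and glycolysis genes 15 were higher than in the Folr2 and Cd209 class, such as Ldha, lactate dehydrogenase, at 242, 232, 262 and 325 CPM against 111, 121, 178 and 192 CPM. Against Spp1 macrophages 17 of 20 were lower. The 16 lipid-associated genes were all lower than in Spp1 macrophages, which the rule separates from the members by Spp1. Trem2 was 263, 91.6 and 322 CPM in the OSA members against 1032, 488 and 747 CPM. Gpnmb was 147, 22.9 and 424 CPM against 3807, 1623 and 3161 CPM. Mfge8, a bridge to dying cells, was 61.6, 52.4 and 152 CPM against 1400, 368 and 1524 CPM.

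**Figure D4:**
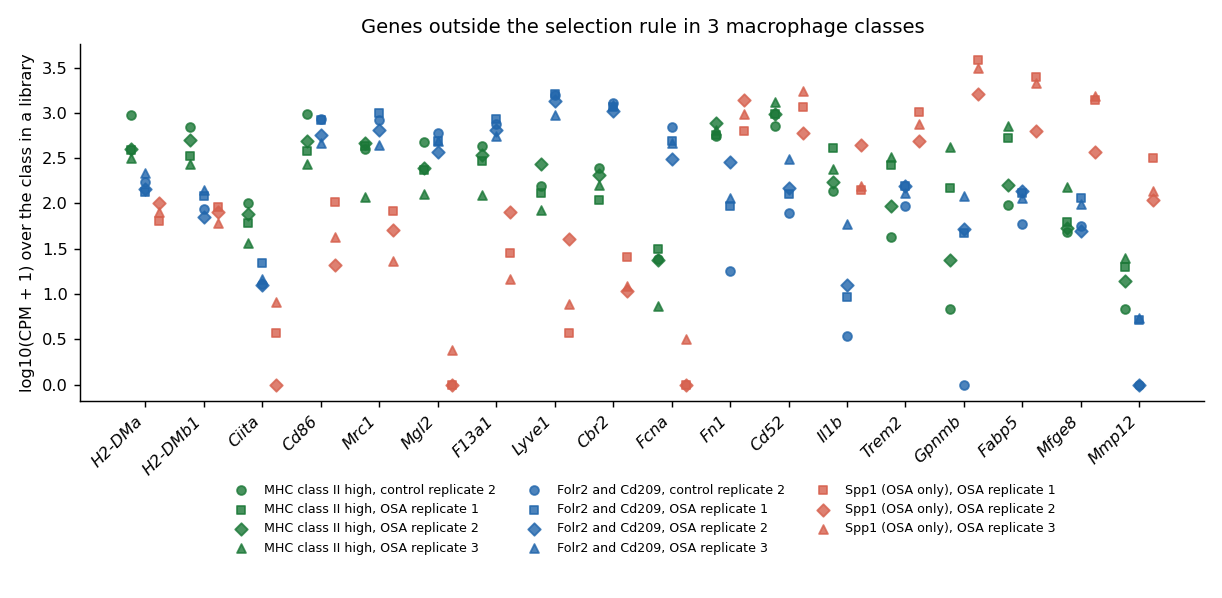
Levels of 18 genes outside the selection rule in MHC class II high macrophages (green), Folr2 and Cd209 macrophages (blue) and Spp1 macrophages (red), as log10 of CPM plus 1 per library. Symbols mark libraries, and the Spp1 class is shown for OSA libraries. H2-DMa and Ciita are highest in green, Lyve1 and Fcna in blue, and Gpnmb and Mfge8 in red.

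Whether the difference between OSA and control was the same in the members as in the Folr2 and Cd209 class was tested directly. Of 7585 genes 0 had a higher and 3 a lower OSA effect in the members (0.0396%; 536 genes with an unadjusted p below 0.05; DESeq2 called 2). Cxcl2, a chemokine that draws neutrophils, stood at 5482 CPM in the control members and at 6686, 5917 and 3833 CPM in the OSA members. In the Folr2 and Cd209 class it stood at 642 CPM in the control and at 2219, 2430 and 1514 CPM in the OSA libraries. The control members thus lay inside the OSA range, while the control of the other class lay below all its OSA libraries (difference of log2 effects -1.65 ± 0.23, SE, edgeR adjusted p = 0.00999). Ccl4, a chemokine for monocytes and T cells, stood at 2068, 1104, 713 and 515 CPM in the members and at 324, 656, 588 and 364 CPM in the other class. It was lower in every OSA library than in the control in the members, and higher in every OSA library in the other class (difference -2.13 ± 0.29, SE, adjusted p = 0.00999). Within the members alone neither gene was called (adjusted p of 0.973 for Cxcl2 and 0.131 for Ccl4). Without OSA replicate 3 both differences stood at nearly the same size, -1.63 and -2.13, with an adjusted p of 0.841. Endothelial barcodes had Cxcl2 at 30.9, 105, 65.8 and 199 CPM, below both classes.

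**Figure D5:**
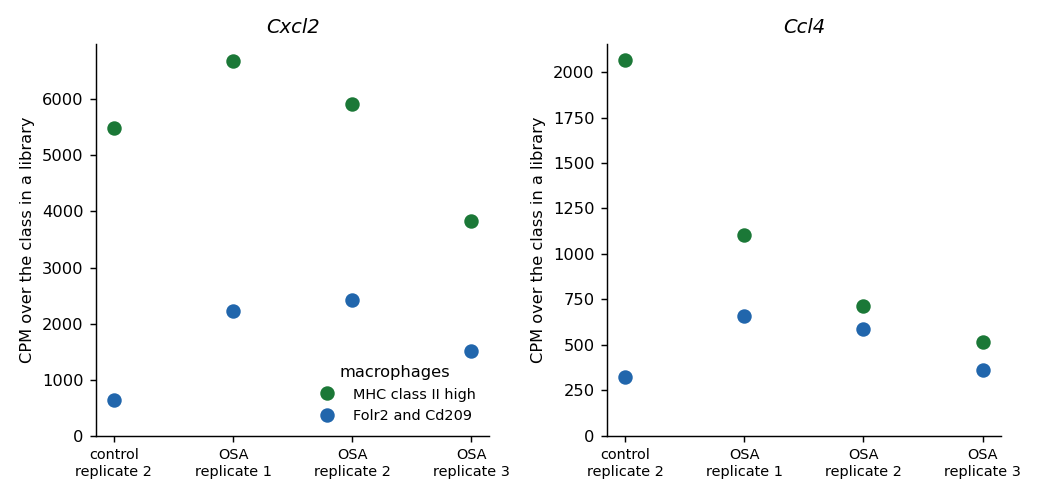
Levels of Cxcl2 and Ccl4 in CPM in MHC class II high macrophages (green) and Folr2 and Cd209 macrophages (blue) of each library. Points are sums over a class in 1 library. The control is low in blue for both genes, and for Ccl4 it is the highest point in green, at 2068 CPM.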

How the data were processed

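Droplet single-cell libraries were deposited as matrices of raw UMI counts, whole numbers for 33696 genes per called barcode. Per the file headers the authors used Cell Ranger 9.0.1, and the submitters' processing notes name the builds GRCm39 and mm39. The 4 matrices held 70217449 to 82184913 UMIs, and 41 to 67 cell barcodes were shared by pairs of libraries. The members and gene lists were chosen with earlier results of these data known. Counts were summed per library and class of at least 10 cells, filtered with filterByExpr, scaled by TMM and tested with edgeR 4.0.16 (R 4.3.3; quasi-likelihood, robust, two-sided). P-values were adjusted by Benjamini-Hochberg over all genes tested, with a threshold of 0.05. The class comparisons had library as a block. The 17 rule genes stayed in library sizes and were not tested. CPM in the text are unscaled, and log2 changes are from the fit. Sums held 169267 UMIs of control members and 422089, 305552 and 1418302 of OSA members.

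Eligible as named genes were the 12 largest rises and falls between OSA and control, the 10 between classes and the 5 of the difference of effects. Each needed an adjusted p under 0.05, a mean log2 CPM of 5 or more and the same side in all libraries. List members that passed and the 4 most abundant of a list were also eligible. Predicted genes were counted only. Doublets were called with Scrublet in scanpy 1.11.5. Alternatives were DESeq2 1.42.0, other scaling, filters and limits, thinned sums and omission of single libraries. Leaving out each gene's highest cell was added after seeing the data.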

Additional observations from a re-analysis of the deposited data

Results flagged for a closer look

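For 3 genes the OSA effect differed between MHC class II high macrophages and Folr2 and Cd209 macrophages of the same libraries in a test of the difference itself. The difference of log2 effects was -1.65 for Cxcl2, -2.13 for Ccl4 and -4.65 for Areg, a ligand of the epidermal growth factor receptor (edgeR adjusted p of 0.00999, 0.00999 and 0.048). Areg stood at 195, 9.48, 105 and 7.05 CPM in the members of control replicate 2 and OSA replicates 1, 2 and 3, and at 7.25, 12.5, 104 and 6.01 CPM in the other class. In the control members 20 of the 33 Areg UMIs lay in 1 cell, and without the highest cells the adjusted p was 0.703. With OSA replicate 3 left out none of the 3 passed (adjusted p = 0.841).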

How the results depend on the processing

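No paired analysis was possible because control replicate 2 is the only control with a matrix here, so the groups share 1 replicate number. The control could not be left out of a comparison with it. The 16 calls of OSA against control became 57 without the filter on low counts, 6 with at least 10 counts in every sum, 62 on sums thinned to equal totals, and 9 without each gene's highest cell. Leaving out 1 OSA library gave 66 to 242 calls. Repeats of single named genes stayed past the threshold in the same direction 165 times and did not 22 times. Settings in which a gene had too few counts for a test are not in this tally. Slc9a4, for which 1 control cell held most UMIs, was tested in 11 of 14 settings and Cenps in 12, without those that left out the highest cells. Against the Folr2 and Cd209 class, the 524 calls became 255 with DESeq2, 310 on thinned sums, and 285 to 463 without 1 library. Against Spp1 macrophages, the 386 calls became 147 with DESeq2, 240 with at least 10 counts in every sum, and 206 to 676 without 1 library. There Mt2 turned to 0.16 (log2) without the highest cells. The 3 differences of effects became 9 with median-of-ratios scaling, 24 without the filter, and 0 to 84 without 1 OSA library. The difference in the share of C1q macrophages turned to -0.201 points at a class II limit of 40 UMIs, to -0.154 without called doublets, grew to 7.06 with at least 10 C1q UMIs and to 5.70 among cells of 2000 to 20000 UMIs, and ranged from -1.52 to 3.14 without 1 OSA library. The cause of these shifts was not tested. With 23 control members, single cells decide sums of rare transcripts.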
